A study of Mus musculus with 5 samples.

Results

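The genes described here make, recycle and use glutathione. They are 36 of the 24421 genes listed in both expression tables of a mouse RNA-seq series. They were chosen by a symbol rule, with earlier results of these data known. It took the synthesis genes Gclc, Gclm and Gss, the reductase gene Gsr and every gene named Gpx with a single digit. It also took every numbered Gst gene of the alpha, kappa, mu, omega, pi, theta, zeta or microsomal (Mgst) class. By role the 36 were 3 synthesis genes, 1 reductase, 8 peroxidases and 24 transferases. The series asked how gene expression differs between fibroblasts and pluripotent cells, and what follows from lowering Gldc, the decarboxylase of the glycine cleavage system, in embryonic stem cells.

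Each of the 5 groups was 1 library, so no difference given here has a replicate check, and no p-value or SD can be had. The first table held MEFs (mouse embryonic fibroblasts, taken from CF-1 embryos), mESCs (embryonic stem cells of the V6.5 line, untreated) and iPSCs (a bought line of induced pluripotent stem cells). The second table, made separately, held V6.5 cells with a non-targeting control shRNA (NTC) and V6.5 cells with Gldc shRNA (shGldc), for which no genotype beyond the line was given. The shRNAs came in a pLKO vector, and how many independent lines the library stands for is not given in the sources used here. The deposited column is named sh3, while the mouse Gldc shRNAs that the study lists are named sh1 and sh2, so which shRNA the shGldc values belong to is uncertain. MEFs grew in serum without β-mercaptoethanol, a thiol. Per the labels, the pluripotent cells grew without feeders in serum replacement with β-mercaptoethanol and leukaemia inhibitory factor (the study also describes culture on feeders, and fibroblast transcripts were highest among the pluripotent libraries in mESCs), so cell type, strain and medium cannot be told apart in any comparison with MEFs. These are bulk libraries, in which fewer cells of a type and less RNA per cell cannot be told apart.

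Glutathione is a tripeptide of glutamate, cysteine and glycine and the most abundant small thiol of most mammalian cells. Glutamate-cysteine ligase, a catalytic subunit (Gclc) with a modifier (Gclm), joins the amino acids glutamate and cysteine, and glutathione synthetase (Gss) adds glycine, the amino acid that the glycine cleavage system breaks down. Glutathione peroxidases spend glutathione to reduce peroxides, glutathione reductase (Gsr) regenerates it with NADPH, and the transferases couple it to reactive electrophiles.

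The peroxidases fall into chemical classes at a single codon, and the sequences around it are shown because the results are ordered by these classes. The lines give 27 coding bases of each gene's reference transcript (mm10, GENCODE M21), 5′ to 3′, with the catalytic codon in capitals. In Gpx1 to Gpx4 it is a TGA annotated as selenocysteine, and in Gpx5 to Gpx8 it is the cysteine codon aligned to that position.
Gpx1: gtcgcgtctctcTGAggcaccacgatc
Gpx2: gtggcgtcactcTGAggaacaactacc
Gpx3: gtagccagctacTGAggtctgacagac
Gpx4: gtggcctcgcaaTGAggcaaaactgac
Gpx5: gtggctacctatTGCggtctgacaatc
Gpx6: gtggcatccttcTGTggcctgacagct
Gpx7: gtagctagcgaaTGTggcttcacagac
Gpx8: gtggctagtgacTGCcgcttcacagac
A TGA is read as selenocysteine only with dedicated machinery, described further on; elsewhere it is a stop. The codon lies at chr9:108339451-108339453 (plus strand, codon 47) in Gpx1, at chr12:76795256-76795258 (minus strand, codon 40) in Gpx2, at chr11:54907256-54907258 (plus strand, codon 73) in Gpx3 and at chr10:80054737-80054739 (plus strand, codon 129) in Gpx4. The cysteine codon of Gpx7 lies at chr4:108403430-108403432 (minus strand, codon 56) and that of Gpx8 at chr13:113045661-113045663 (minus strand, codon 79), all in coding exons.

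The pi transferases are printed for another reason. Gstp1 and Gstp2 are neighbours on the minus strand of chromosome 19, at chr19:4035407-4037985 and chr19:4040285-4046023, and their reads are hard to assign because the genes are near copies. Their coding sequences of 630 bases differed at 12 positions (98.1% identical), of which 6 fall in the first 60 bases, printed here with the differing bases in capitals.
Gstp1: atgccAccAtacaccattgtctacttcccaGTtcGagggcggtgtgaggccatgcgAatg
Gstp2: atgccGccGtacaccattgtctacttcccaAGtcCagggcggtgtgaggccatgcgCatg
Of the 50-nt stretches of Gstp1 transcripts 33.7% also occurred in Gstp2, and 54.3% of those of Gstp2 occurred in another gene. The levels of both are therefore uncertain in how reads were split between them, and their sum is the safer value.

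Levels are given as FPKM, fragments scaled to transcript length and to library size, as the authors deposited them, so that levels can be compared between genes per length. Fold changes are plain ratios of FPKM. Log2 ratios were taken between log2(FPKM + 0.1) values within a table, which pulls the ratios of low genes towards 0, and a gene entered a comparison when it reached 1 FPKM in at least 1 of its libraries. A gene at least 2-fold higher or lower on that scale is counted as different, which is a rule of size and not a test. Marker levels matched the labels. Gldc was at 0.123 FPKM in MEFs, 59.7 in mESCs, 70.8 in iPSCs and 74.7 in NTC cells, and at 2.07 in shGldc cells, 36.1-fold below NTC. Of 6 pluripotency markers, all were at 83.7 FPKM or more in the 4 pluripotent libraries, and of 7 fibroblast markers the summed level in those libraries was 0.0595% to 0.719% of that in MEFs. MEFs also carried macrophage transcripts, with 8 of 9 markers at 1 FPKM or more (summed 192.6 FPKM), where only Cd68 reached 1 FPKM in the other libraries, and their part in the differences from MEFs was not tested. Depth, estimated from the smallest step between values of low genes, was 22100000 to 24600000 fragments in the first table and about 28700000 and 29000000 in the second, the last pair uncertain by a factor of 2.

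Glutathione genes were broadly expressed. Of the 36, 30 reached 1 FPKM in at least 1 library (83.3%, against 55.9% of all genes) and 23 did so in every library (63.9%, against 37.6%). The other 6 stayed under 1 FPKM throughout: Gpx5, an epididymal peroxidase, was listed at 0 in all 5 libraries, and Gpx6, Gsta1, Gsta2, Gstt4 and Mgst2 peaked at 0.288, 0.212, 0.956, 0.0806 and 0.495 FPKM. Gsta1 is also a near copy, with 90.5% of its 50-nt stretches found in other transcripts, most of them in Gm3776. Summed over the 36 genes, the level was 2179 FPKM in MEFs, 2415 in mESCs, 3298 in iPSCs, 1880 in NTC cells and 2180 in shGldc cells. The FPKM totals of the libraries differed. As shares of those totals the sums were 0.467%, 0.439%, 0.572%, 0.357% and 0.403% in the same order, which places mESCs and shGldc cells below MEFs.

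**Figure D1:**
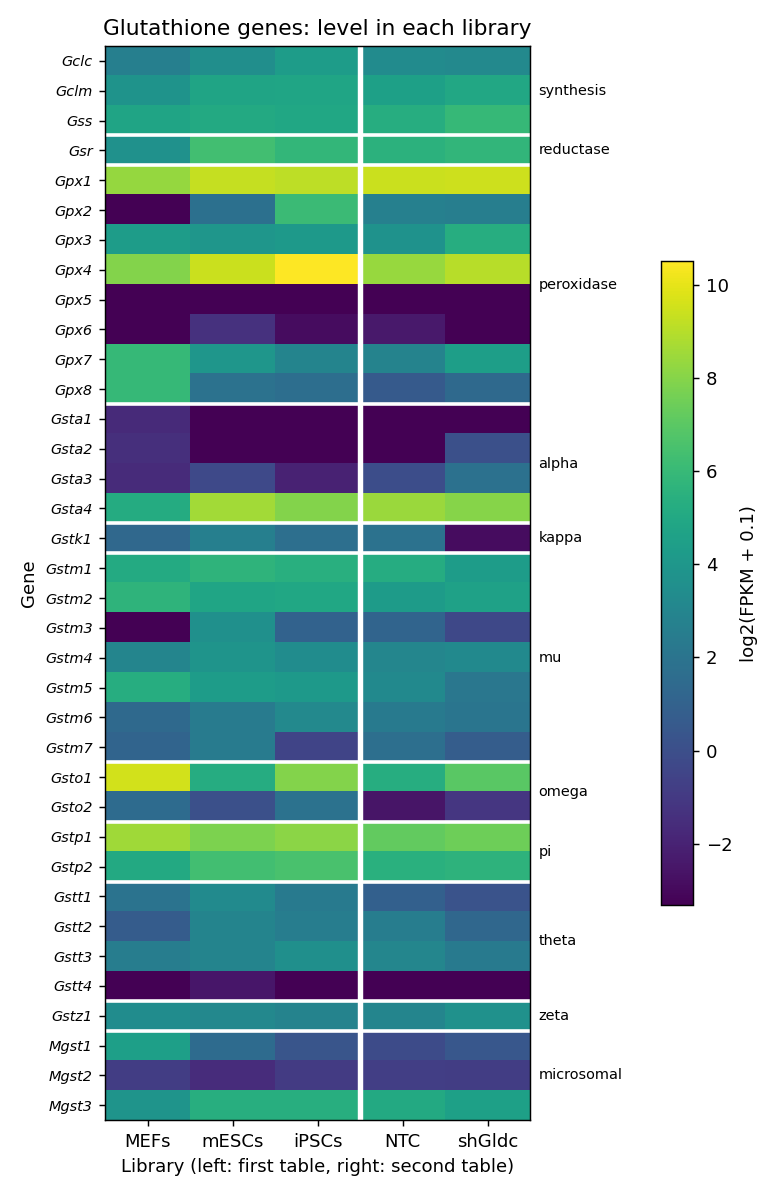
Level of each of the 36 glutathione genes (rows, by role and class) in each library (columns, the 2 tables separated by a white line), coloured by log2(FPKM + 0.1). Gpx1, Gpx4, Gstp1 and Gsta4 are bright in the pluripotent columns, while Gsto1 is brightest in MEFs at 769.8 FPKM and Gpx7 and Gpx8 are highest in MEFs.

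The first question was how pluripotent cells differ from fibroblasts. In mESCs 12 of the 29 glutathione genes that passed the filter were at least 2-fold higher than in MEFs (41.4%, where 30.3% of all genes were) and 5 were at least 2-fold lower (17.2%, where 23.3% of all genes were). In iPSCs 12 of 29 were higher (41.4%, against 31.5% of all genes) and 6 lower (20.7%, against 21.3%). Both comparisons share the 1 MEF library, so they are not independent and are given side by side. Among the members past 2-fold, the reductase gene Gsr, the peroxidase genes Gpx2 and Gpx4 and the transferase genes Gsta4, Gstm3, Gstm6, Gstp2, Gstt2 and Mgst3 were higher in both lines, and the omega transferase Gsto1, the endoplasmic reticulum peroxidases Gpx7 and Gpx8 and the microsomal Mgst1 were lower in both. The median log2 ratio of the members was 0.88 in mESCs and 0.41 in iPSCs, beside 0.25 and 0.31 for all genes tested. Since all genes lay above 0, the libraries were also scaled to the same FPKM sum or centred on the median of all genes: mESCs then had 10 members higher and 8 lower under either scaling, and iPSCs 10 higher and 7 lower. The calls lost were Gstm6 and Gstp2 in mESCs and Gclm and Gstt3 in iPSCs. Those gained, all lower, were Gstm2, Gstm5 and Gstp1 in mESCs and Gstm2 in iPSCs.

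**Figure D2:**
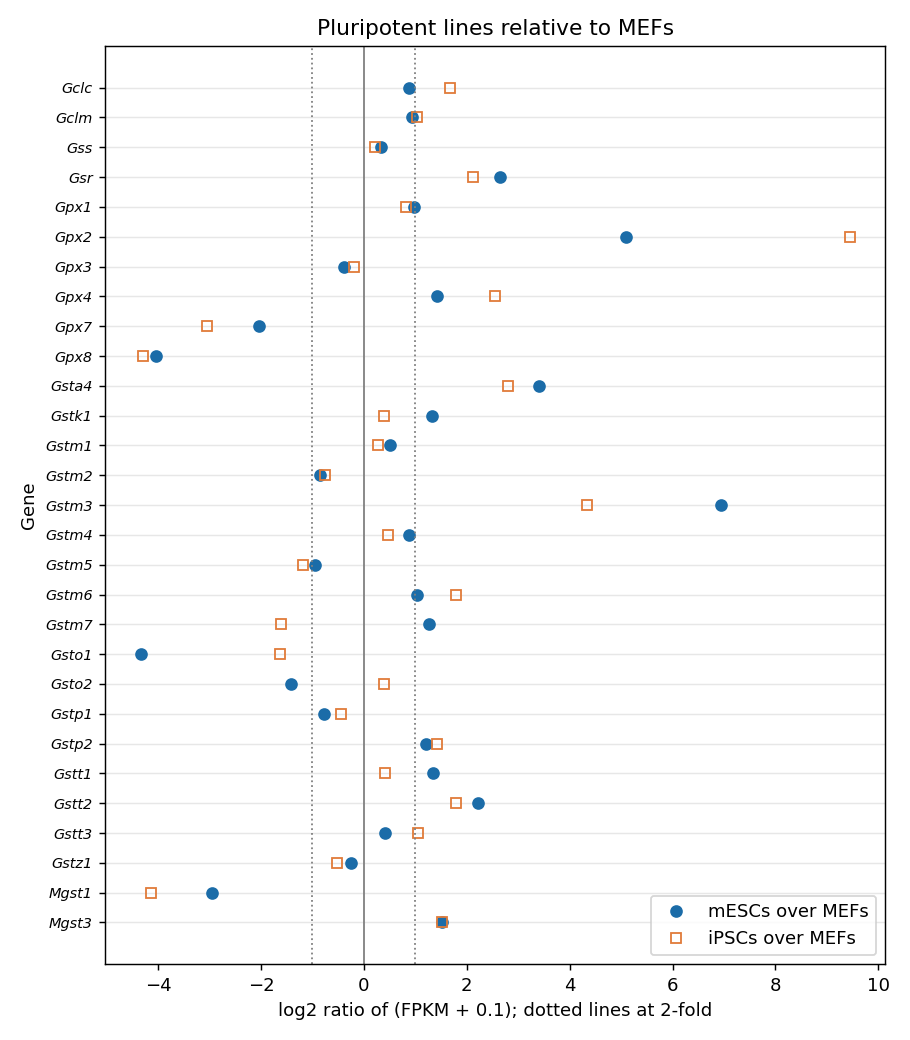
Log2 ratio of (FPKM + 0.1) over MEFs for the 29 glutathione genes that passed the filter (rows), with filled circles for mESCs, open squares for iPSCs and dotted lines at 2-fold. Gsr, Gpx4, Gsta4 and Mgst3 lie right of the upper line in both, Gpx7, Gpx8, Gsto1 and Mgst1 left of the lower line in both, and Gstm7 lies on opposite sides; the far points of Gpx2 and Gstm3 depend on the pseudocount, since both were listed at 0 in MEFs.

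Among the synthesis genes, the limiting ligase was higher in pluripotent cells and the last step barely differed. Gclc, the catalytic subunit (chr9:77754535-77794485, plus strand), was at 6.21 FPKM in MEFs, 11.5 in mESCs and 20.2 in iPSCs, 1.85-fold and 3.25-fold above MEFs. Gclm, the modifier subunit that makes the ligase less sensitive to feedback by glutathione, was at 13.7, 26.5 and 28.4 FPKM, 1.93-fold and 2.07-fold above MEFs. Only the iPSC ratios passed 2-fold, and that of Gclm did not under the other scalings. Gss was at 26.4, 33.2 and 30.6 FPKM, a log2 ratio of 0.33 in mESCs and 0.21 in iPSCs, which in iPSCs lay below the median of all genes (0.31). Exons of Gss overlap genes on the opposite strand over 15.4% of their bases, so part of its reads cannot be assigned without the strand setting. Gsr, which regenerates glutathione from its disulfide (chr8:33652523-33698163, plus strand), had a larger ratio in each line than any synthesis gene. It was at 12.9 FPKM in MEFs, 81.1 in mESCs and 56.2 in iPSCs, 6.30-fold and 4.36-fold above MEFs.

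The selenocysteine peroxidases differed one by one. The cytosolic and mitochondrial Gpx1 was among the highest genes of every library, at 314.5 FPKM in MEFs, 619.7 in mESCs and 554.5 in iPSCs, ranks 221, 122 and 139. Gpx4, which reduces phospholipid hydroperoxides within membranes and guards against ferroptosis, was at 250 FPKM in MEFs, 672.9 in mESCs and 1457 in iPSCs, 2.69-fold and 5.83-fold above MEFs. In iPSCs it ranked 64th of all genes, although 34.7% of its 50-nt stretches also occur in the pseudogene Gpx4-ps2. The gastrointestinal peroxidase Gpx2 was listed at 0 in MEFs, at 3.31 FPKM in mESCs and at 69.7 in iPSCs, so no fold over MEFs can be given. The secreted plasma peroxidase Gpx3 did not reach 2-fold, at 19.8, 15.1 and 17.3 FPKM. In each line 2 of the 4 passed 2-fold upward, where 30.3% of all genes were in mESCs and 31.5% in iPSCs. They were Gpx4 and Gpx2, the latter over a level of 0.

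Of the cysteine peroxidases, Gpx7, a peroxidase of the endoplasmic reticulum that passes oxidation on to protein disulfide isomerase, was at 62.1 FPKM in MEFs, 15.1 in mESCs and 7.46 in iPSCs, 4.12-fold and 8.32-fold lower. Gpx8, a membrane protein of the same compartment, was at 62.2, 3.68 and 3.10 FPKM, 16.9-fold and 20.1-fold lower. At least 2-fold lower were 23.3% of all genes in mESCs and 21.3% in iPSCs. The other cysteine members, Gpx5 and Gpx6, stayed under 1 FPKM. As a share of summed peroxidase FPKM (708.5 in MEFs, 1330 in mESCs and 2109 in iPSCs), Gpx7 and Gpx8 made 8.76% and 8.78% in MEFs and at most 1.13% and 0.276% in the pluripotent lines. Gpx4 made 35.3% in MEFs, 50.6% in mESCs and 69.1% in iPSCs, while Gpx1 made 44.4%, 46.6% and 26.3%. The fibroblast markers, collagen genes among them, were summed at 6876 FPKM in MEFs and at 49.4 and 12.8 in the pluripotent lines. Their part in the result was not tested.

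**Figure D3:**
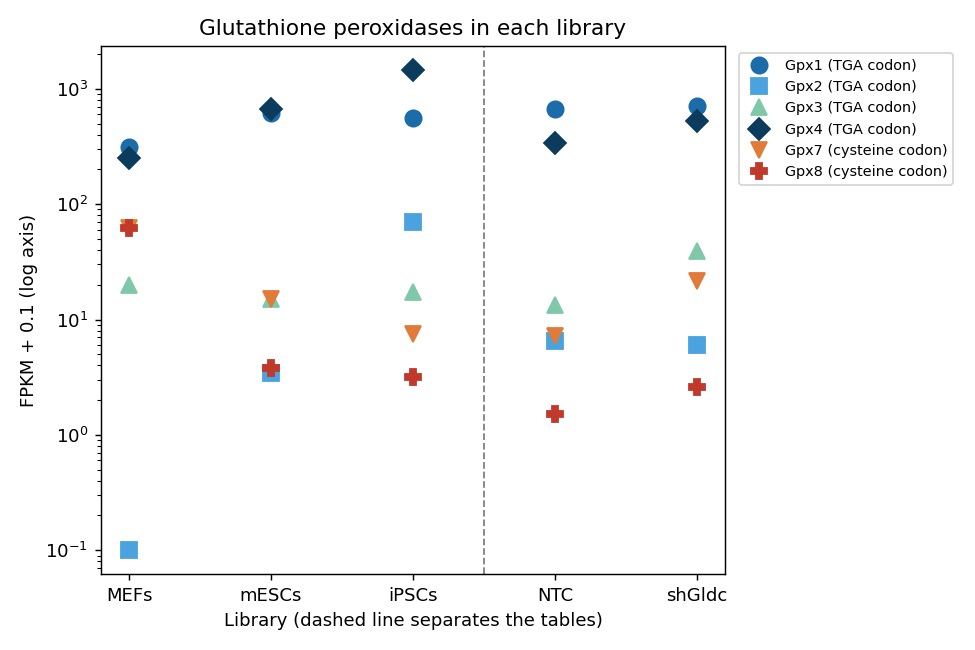
FPKM + 0.1 (log axis) of the 6 glutathione peroxidases that reached 1 FPKM, in each of the 5 libraries, with a dashed line between the separately made tables and 1 marker shape per gene. Gpx1 and Gpx4 top every library, Gpx7 and Gpx8 drop from about 62 FPKM in MEFs to under 22 and under 4 in the pluripotent libraries, and Gpx2 is listed at 0 in MEFs and reaches 69.7 FPKM in iPSCs.

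The make-up of the transferases also differed between cell types. Their summed level was 1411 FPKM in MEFs, 933.1 in mESCs and 1054 in iPSCs. In MEFs 54.6% of it was Gsto1 and 26.3% Gstp1, while in mESCs 40.7% was Gsta4, 23.1% Gstp1 and 4.08% Gsto1. The iPSCs lay between, with 23.5% Gsto1, 25.9% Gstp1 and 23.7% Gsta4.

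**Figure D4:**
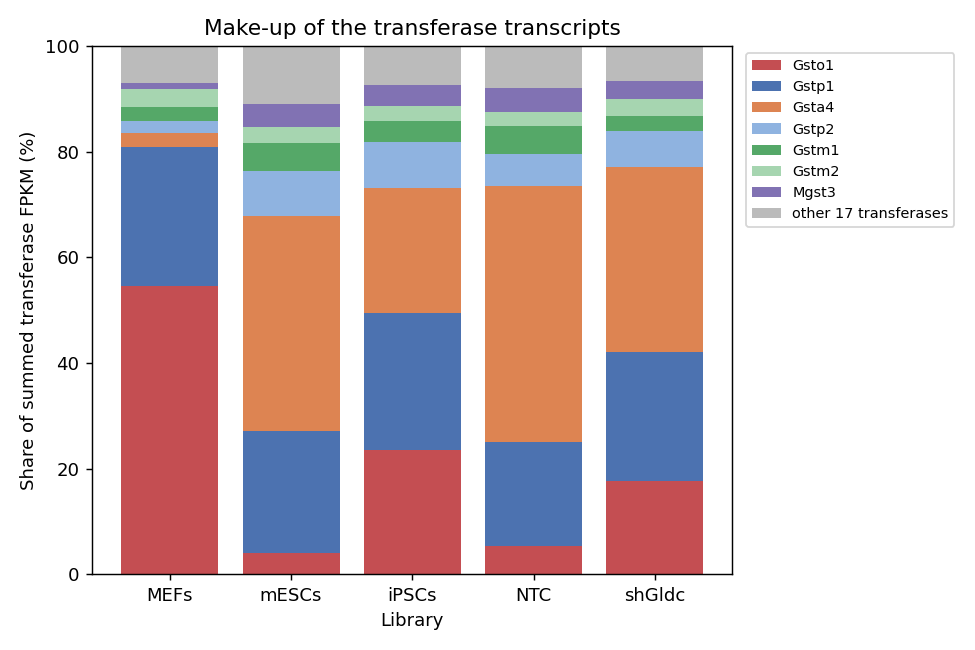
Share of summed transferase FPKM (percent, stacked bars) held by the 7 transferases named in the legend and by the other 17 together, in each library. Gsto1 holds 54.6% of the MEF bar and 4.08% to 23.5% of the pluripotent bars, and Gsta4 holds 2.55% of the MEF bar and 23.7% to 48.4% of the pluripotent bars.

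Gsto1, an omega transferase with thioltransferase and dehydroascorbate reductase activity (chr19:47854970-47864790, plus strand), was at 769.8 FPKM in MEFs, rank 94 of all genes. It was at 38.0 FPKM in mESCs and 248.1 in iPSCs, 20.2-fold and 3.10-fold lower than in MEFs. Its neighbour Gsto2 was at 2.71, 0.947 and 3.56 FPKM, 2.86-fold below MEFs in mESCs and 1.32-fold above them in iPSCs. The omega genes were thus higher in iPSCs than in mESCs, as described below.

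Gsta4, the alpha transferase that conjugates the lipid aldehyde 4-hydroxynonenal (chr9:78182774-78209349, plus strand), was at 36.0 FPKM in MEFs, 380.1 in mESCs and 250.2 in iPSCs, 10.6-fold and 6.95-fold higher. It was the sole alpha transferase to pass the filter in these comparisons. Gsta3, which in mice conjugates aflatoxin epoxide, stayed at 0.225, 0.739 and 0.150 FPKM. The pi gene Gstp1 was at 370.9, 215.8 and 272.7 FPKM and its near copy Gstp2 at 34.0, 78.6 and 91.6. Gstp2 passed 2-fold in both lines before rescaling, but the sum of both pi genes, free of the split of shared reads, was 404.9 FPKM in MEFs, 294.4 in mESCs and 364.4 in iPSCs.

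The 7 mu transferases lie side by side on chromosome 3, between 107895821 and 108044894, and did not move as a block. Gstm3 was listed at 0 in MEFs, at 12.3 FPKM in mESCs and at 1.93 in iPSCs, and 28.8% of its 50-nt stretches occur elsewhere in the annotation. Gstm6 was at 2.56, 5.37 and 9.17 FPKM, 2.095-fold and 3.58-fold higher. Gstm7 was 2.46-fold higher than in MEFs in mESCs and 3.40-fold lower in iPSCs, at 2.11, 5.21 and 0.622 FPKM. Gstm5 was lower, at 38.5, 19.97 and 17.03 FPKM, past 2-fold in iPSCs. The other mu genes stayed within 2-fold in both lines before rescaling: Gstm1 was at 35.2, 50.01 and 42.7 FPKM, Gstm2 at 50.3, 27.9 and 29.9, and Gstm4 at 7.69, 14.2 and 10.6. Before rescaling, the summed mu level was similar in MEFs and mESCs, at 136.5 and 135.0 FPKM, and lower in iPSCs at 111.9, although the genes within it differed.

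Of the theta genes, Gstt2 was at 1.56 FPKM in MEFs, 7.60 in mESCs and 5.63 in iPSCs, 4.88-fold and 3.62-fold higher. Gstt1, a theta transferase that acts on small halogenated compounds, was at 3.79, 9.83 and 5.06 FPKM, past 2-fold in mESCs. Gstt3 was at 5.64, 7.49 and 11.8 FPKM, past 2-fold in iPSCs before rescaling, with 13.6% of its exon bases shared with Gm20441 on the same strand. Gstk1, the mitochondrial and peroxisomal kappa transferase, was at 2.42, 6.24 and 3.21 FPKM, past 2-fold in mESCs. Gstz1, the maleylacetoacetate isomerase of tyrosine breakdown, was within 2-fold at 10.4, 8.76 and 7.24 FPKM. The microsomal genes split: Mgst1, a membrane enzyme of the endoplasmic reticulum and outer mitochondrial membrane, was 7.95-fold and 19.1-fold lower, at 22.0, 2.77 and 1.15 FPKM. Mgst3 was 2.87-fold and 2.89-fold higher, at 14.3, 41.0 and 41.3 FPKM.

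The pluripotent lines, given the same medium in the labels, differed from each other at fewer genes. In iPSCs 4 of 29 glutathione genes were at least 2-fold higher than in mESCs (13.8%, against 10.1% of all genes) and 4 were at least 2-fold lower (13.8%, against 7.44%), with a median log2 ratio of -0.16 beside 0.04 for all genes. Scaled to the same FPKM sum, the counts were 4 higher and 6 lower. Gpx2 stood out, 21.1-fold higher in iPSCs, from about 87.1 estimated fragments in mESCs to 1640 in iPSCs. Gsto1 was 6.52-fold, Gsto2 3.76-fold and Gpx4 2.16-fold higher in iPSCs. Gstm7 was 8.38-fold and Gstm3 6.36-fold lower, and Mgst1 (2.41-fold) and Gpx7 (2.02-fold) lay just past the limit. Extraembryonic endoderm markers were summed at 19.0 FPKM in the iPSC library against 6.59 in the mESC library over 5 genes (none at 0 in either). Gata4 was at 9.99 against 3.52 FPKM, Gata6 at 4.46 against 0.646 and Sox17 at 2.57 against 0.571. Dab2 was nearly level at 1.16 against 1.02, and Pdgfra was slightly lower at 0.810 against 0.834. The same list was summed at 46.1 FPKM in MEFs, with Dab2 at 25.9 and Pdgfra at 15.8. The 7 fibroblast markers were summed at 49.4 FPKM in mESCs and 12.8 in iPSCs. Of the 6 that passed the filter, 5 were lower in iPSCs, among them Col1a1 at 1.68 against 20.5 FPKM and Dcn at 0 against 1.93 (the sole marker at 0), and Thy1 was at 8.30 against 5.63. The part of both lists in the differences between the lines, Gpx7 and Mgst1 included, was not tested.

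The second question was how V6.5 cells with Gldc shRNA differ from V6.5 cells with the control shRNA. The glutathione genes did not shift together. In shGldc cells 4 of 29 were at least 2-fold higher than in NTC cells (13.8%, against 8.97% of all genes) and 4 at least 2-fold lower (13.8%, against 7.68%), with a median log2 ratio of 0.18 beside 0.04 for all genes. The counts were 4 higher and 5 lower under either rescaling. With a pseudocount of 1 the lower genes Gstm3, Gstm5 and Gstt2 no longer passed 2-fold. The higher genes were Gsta3, Gsto1, Gpx7 and Gpx3 and the lower ones Gstk1, Gstm3, Gstt2 and Gstm5. By class, 2 of 6 peroxidases were higher and 0 lower, and of 19 transferases 2 were higher and 4 lower. Since transferases made up 19 of the 29 genes, no split between the classes is read from these counts.

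The genes that make and recycle glutathione stayed within 2-fold in shGldc cells. Gss, which uses glycine, was at 39.9 FPKM in NTC cells and 61.3 in shGldc cells, 1.54-fold higher. Gclm was at 23.1 and 31.3 FPKM and Gsr at 46.5 and 54.2, 1.35-fold and 1.17-fold higher, while Gclc was 1.12-fold lower at 9.94 and 8.89. Untreated mESCs, in the other table, had 33.2 FPKM of Gss, 26.5 of Gclm, 81.1 of Gsr and 11.5 of Gclc. The Gss level in shGldc cells thus lay above both controls, as did that of Gclm, and those of Gclc and Gsr did not.

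Of the peroxidases, Gpx3 was at 13.3 FPKM in NTC cells and 39.4 in shGldc cells, 2.97-fold higher. Gpx7 was at 7.06 and 21.3 FPKM, 3.02-fold higher. Against untreated mESCs, Gpx3 was 2.62-fold higher in shGldc cells but Gpx7 only 1.41-fold. Gpx8 (1.41 and 2.5 FPKM), Gpx4 (337.8 and 526.3) and Gpx1 (669.9 and 709.6) were higher by less than 2-fold, and Gpx2 was at 6.46 and 5.87. Thus 5 of 6 peroxidases that passed the filter were above NTC, as were 52.8% of all genes. Against untreated mESCs 4 of 6 were above, with Gpx4 (672.9 FPKM there) and Gpx8 (3.68) below.

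Of the transferases, Gsto1 was at 38.5 FPKM in NTC cells and 126.7 in shGldc cells, 3.29-fold higher, and at 38.0 in untreated mESCs. The control libraries were thus nearly level for this gene. Its share of summed transferase FPKM was 5.31% in NTC cells and 17.6% in shGldc cells, while that of Gsta4 was 48.4% and 35.0% (350.8 and 251.7 FPKM). Gsta3 was at 0.854 and 3.49 FPKM, 4.08-fold higher, from about 36.1 to about 146 estimated fragments. Gsto2 stayed under 1 FPKM in both libraries, at 0.0728 and 0.349.

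Marker lists also differed between shGldc and NTC cells. Of 5 extraembryonic endoderm markers, 4 reached 1 FPKM in shGldc cells and 1 in NTC cells, with none at 0 in either, and their sum was 20.3 against 4.07 FPKM. Gata6 was at 8.22 against 0.462 FPKM and Gata4 at 7.84 against 2.38. Of the 6 pluripotency markers, 5 were below NTC within 2-fold and Dppa5a was above it (1440 and 1792 FPKM). Among them Utf1 was at 572.0 FPKM in NTC cells and 312.5 in shGldc cells, Sox2 at 223.0 and 130.4, and Pou5f1 at 1215 and 914.9. The fibroblast markers were summed at 4.09 FPKM in shGldc cells and 11.3 in NTC cells (3 of 7 at 0 in each), with Thy1 at 1.11 against 6.95 and Col1a1 at 0.124 against 1.24, while Col1a2 was at 0.621 against 0.225. The part of these markers in the higher Gsto1, Gpx3, Gpx7 and Gsta3 and in the lower genes was not tested.

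Gstk1 had the lowest ratio. It was at 3.60 FPKM in NTC cells, 6.24 in untreated mESCs and 3.21 in iPSCs, and at 0.0374 in shGldc cells. That value corresponds to about 1 fragment against about 97 in NTC cells, a ratio of 96.1 with an exact 95% interval of 16.8 to 3830 that covers counting error only and rests on the estimated depth. Its transcripts share no 50-nt stretch with another gene and no exon overlaps one (chr6:42245935-42250447, plus strand), so its reads are not shared with a copy in this annotation.

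The other lower genes had smaller ratios. Gstm3 was at 2.08 and 0.708 FPKM (2.93-fold), Gstt2 at 5.67 and 2.40 (2.36-fold) and Gstm5 at 9.37 and 4.41 (2.13-fold, with 13.9% of its exon bases under a gene on the opposite strand). Gstm7, at 3.26 and 1.61 FPKM, and Gstm1, at 38.4 and 19.9, lay just inside the limit. Gstm6 was at 5.15 and 4.10 FPKM, and Gstm2 (19.5 and 24.2) and Gstm4 (8.17 and 9.50) were slightly higher. The summed mu level was 85.9 FPKM in NTC cells and 64.4 in shGldc cells. The theta genes Gstt1 (1.76 and 1.07) and Gstt3 (7.94 and 5.02) were lower within 2-fold, as was Mgst3 (33.2 and 23.5). Gstp1 (143.8 and 175.8), Gstp2 (43.9 and 49.7), Gstz1 (7.72 and 12.6) and Mgst1 (0.787 and 1.23) were higher within 2-fold.

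The untreated V6.5 library gave a second control, across the tables. Against it, shGldc cells had 3 of 29 members at least 2-fold higher (10.3%, against 9.89% of all genes) and 8 at least 2-fold lower (27.6%, against 13.9%), with a median log2 ratio of -0.54 beside -0.02 for all genes. The controls themselves differed. In the NTC library 0 of 28 members were 2-fold higher than in untreated V6.5 (4.99% of all genes were) and 6 were 2-fold lower (21.4%, against 10.3% of all genes: Gstm3, Gstt1, Mgst1, Gpx8, Gstm5 and Gpx7), with a median log2 ratio of -0.47 beside -0.06 for all genes. The 7 fibroblast markers were summed at 49.4 FPKM in untreated V6.5 and 11.3 in NTC cells (3 at 0 in NTC cells and 0 in untreated V6.5). Of the 6 that passed the filter, 4 were lower in NTC cells, among them Col1a1 at 1.24 against 20.5 FPKM, while Thy1 was at 6.95 against 5.63 and Pdgfrb at 2.88 against 2.42. Their part in the control difference was not tested. Of the genes higher over NTC, Gsta3, Gsto1 and Gpx3 were also at least 2-fold above untreated V6.5, and Gpx7 was not. The genes lower over NTC (Gstk1, Gstm3, Gstt2 and Gstm5) were also at least 2-fold below untreated V6.5, as were Gstt1, Gstm7, Gstm1 and Mgst1. Gstm3 was 17.3-fold and Gstt1 9.17-fold lower than in untreated V6.5, of which 5.91-fold and 5.58-fold lay between the controls. Whether the shRNA vector, the culture or the separate making of the tables sets the controls apart cannot be told apart.

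**Figure D5:**
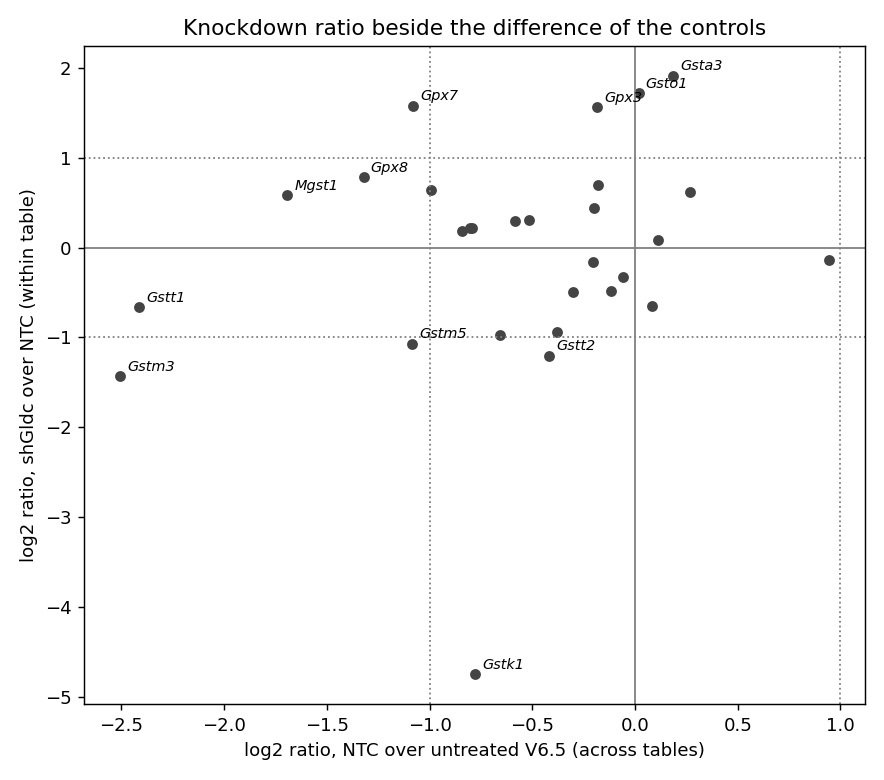
Log2 ratio of shGldc over NTC within the second table (vertical) against that of NTC over the untreated line across the tables (horizontal) for 29 glutathione genes, with dotted lines at 2-fold. Gsta3, Gsto1 and Gpx3 lie above the upper line near 0 on the horizontal axis, Gpx7 lies above it where the controls differ by over 2-fold, and Gstk1 lies lowest at -4.75; both axes use the NTC library, so no trend is read from them.

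In the promoter windows searched, the members had the core of the antioxidant response element about as often as all genes. This element is the site bound by NRF2, which controls many glutathione genes. The motif searched was TGACNNNGC on both strands, with no other motif searched, in the RefSeq windows (GRCm38.p6) from 250 bases before to 50 after each gene's start. It occurred in a window of 5 of the 32 members with an entry (15.6%: Gclm, Gsta3, Gstm5, Gstm7 and Mgst1), beside 14.0% of all genes with one. Gclc, Gsr, Gsta4 and Gstt2 had no entry. Sites outside the windows were not searched, so these shares cannot tell whether NRF2 controls the members. The 5 genes did not share a direction over MEFs. Mgst1 was at least 2-fold lower in both lines, Gstm7 was split, and Gsta3 stayed under 1 FPKM in these libraries. Before rescaling, Gstm5 passed 2-fold downward and Gclm upward in iPSCs only, and after it Gclm passed in neither line.

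Around the members, the genes that supply cysteine and break down glutathione differed individually. Counts of genes at least 2-fold higher or lower, in these and the other pathway lists below, stand beside the shares of all genes. Those shares were 30.3% higher and 23.3% lower in mESCs over MEFs, and 31.5% and 21.3% in iPSCs over MEFs. They were 10.1% and 7.44% in iPSCs over mESCs, and 8.97% and 7.68% in shGldc cells over NTC. With lists this short a count near those shares is no result about the list. Slc7a11, the cystine importer, was lower in the pluripotent lines, at 2.98 FPKM in MEFs, 0.738 in mESCs, 0.232 in iPSCs, 0.582 in NTC cells and 0.562 in shGldc cells. Of 7 cysteine supply genes, 1 was 2-fold higher and 2 lower in mESCs and 2 higher and 1 lower in iPSCs, from Cbs, the entry enzyme of transsulfuration (log2 ratios of 4.94 and 5.37), to Slc7a11 (-1.88 and -3.21). Between the lines, 3 of 6 were higher in iPSCs and 1 lower, from Cth, which releases cysteine (3.36), to Mpst (-1.43). In shGldc cells all 6 that passed the filter were below NTC (47.2% of all genes were), from Slc1a4 (-0.13) to Cth (-1.003), which alone passed 2-fold. Against untreated V6.5 the Cth ratio was 0.06, since NTC cells had 19.3 FPKM, untreated V6.5 9.198 and shGldc cells 9.60.

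Of the glutathione breakdown genes, 6 of 11 were higher and 2 lower in mESCs, and 4 of 10 higher and 1 lower in iPSCs, from the surface enzyme Ggt1 (4.66 and 6.14) to Dpep1 (-2.37 and -4.77). These ratios depend on the pseudocount, since Ggt1 was listed at 0 in MEFs and Dpep1 in iPSCs. Ggct, which turns gamma-glutamyl dipeptides into oxoproline, was at 1.71 FPKM in MEFs, 16 in mESCs, 14.2 in iPSCs, 15.9 in NTC cells and 11.0 in shGldc cells. Chac1, which degrades glutathione inside the cell, was at 53.0, 11.5, 57.3, 4.44 and 6.78 FPKM in the same order. It had the highest ratio of its list in iPSCs over mESCs (2.30), where 3 of 10 were higher and 1 lower, Dpep3 lowest (-1.05). In shGldc cells 1 of 10 was higher (Dpep3, 2.11) and 2 lower (Ggt6 lowest at -3.46, listed at 0 there).

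The transporters that export glutathione conjugates ranged from Abcc4 (3.62 in mESCs and 3.82 in iPSCs) to Abcc3 (-2.31) in mESCs and Abcg2 (-1.74) in iPSCs, with 1 of 5 higher and 1 lower and 2 higher and 1 lower. In iPSCs over mESCs they ranged from Abcc3 (2.38) to Abcg2 (-0.99), and in shGldc cells from Abcg2 (0.78) to Abcc1 (-1.25), the single one of 4 past 2-fold. Among the glutaredoxins, Glrx was lowest in both lines over MEFs (-1.34 and -2.01), with Glrx2 highest in mESCs (0.48) and Glrx3 in iPSCs (-0.09). Of the 4, 1 was 2-fold lower in mESCs, 2 in iPSCs and 0 higher in either, and none passed 2-fold in iPSCs over mESCs (Glrx3 0.03 to Glrx5 -0.97) or in shGldc cells (Glrx 0.34 to Glrx3 0.21).

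In the parallel thioredoxin system 4 of 13 genes were higher in mESCs, near the share of all genes, and 1 was lower, and 3 higher and 3 lower in iPSCs, from Txnip (2.14 and 3.18) to the peroxiredoxins Prdx5 (-1.12) and Prdx3 (-1.29). Txnrd1, another selenoprotein, was at 51.7 FPKM in MEFs, 156.1 in mESCs, 240.2 in iPSCs, 91.0 in NTC cells and 98.0 in shGldc cells. Txnip (1.05) and Prdx2 (-1.52) were the extremes of iPSCs over mESCs. In shGldc cells 1 of 13 passed 2-fold, the 1-Cys peroxiredoxin Prdx6 (1.10), which takes its electrons from glutathione, and Prdx2 was lowest (-0.58).

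NRF2 itself (Nfe2l2) was at 32.4 FPKM in MEFs, 25.6 in mESCs, 32.0 in iPSCs, 15.7 in NTC cells and 19.5 in shGldc cells. Of 14 NRF2 regulators and targets, 3 were higher and 4 lower in mESCs, where 30.3% and 23.3% of all genes were. In iPSCs 2 were higher and 1 lower, where 31.5% and 21.3% of all genes were. The ratios ran from Nqo1 (2.68 and 2.67) to Me1 (-2.24 and -1.21). Nqo1 was at 5.88, 38.2, 38.0, 15.2 and 18.2 FPKM. The range of iPSCs over mESCs ran from Maff (2.21) to Tkt (-1.22). In shGldc cells only Hmox1, the haem oxygenase, passed 2-fold (1.06, Maff lowest at -0.38), and it was at 76.8, 56.4, 81.3, 87.2 and 181.5 FPKM over the libraries.

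Of the 6 genes of the machinery that reads TGA as selenocysteine, 3 were at least 2-fold higher in mESCs than in MEFs, where 30.3% of all genes were. The other 3 were above MEFs by less, and the ratios ran from Sephs2 (1.69), which makes selenophosphate, to Sephs1 (0.49), with a median of 1.12. In iPSCs 5 of 6 were above MEFs (58.4% of all genes were), 2 by 2-fold or more (31.5% of all genes; Sephs2 1.85, Sephs1 -0.36, median 0.66). Between the lines none of 6 passed 2-fold (Sephs2 0.16 to Sephs1 -0.85), and in shGldc cells the 6 were below NTC (47.2% of all genes were) by less than 2-fold, from Sepsecs (-0.12) to Eefsec (-0.59), the selenocysteine elongation factor. Of 7 other glutathione-using enzymes, 1 was higher and 1 lower in mESCs and 2 higher and 1 lower in iPSCs, from Hagh (1.65) and Ptges (2.12) to Clic1 (-2.10 and -1.96). In iPSCs over mESCs 2 were higher, from Ptges (1.59) to Glo1 (-0.24), and in shGldc cells 1 was lower, from Ptges (0.73) to Ltc4s (-1.71).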

How the data were processed

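RNA was extracted with TRIzol, made into libraries with a NEBNext kit and sequenced on an Illumina HiSeq. The authors mapped reads to mm10 with TopHat2 and assembled transcripts with StringTie, and they deposited gene FPKM values from Ballgown in 2 separately made tables of 24421 genes. The submitters' processing notes give TopHat2 2.1.0, StringTie 1.3.4d and SAMtools 1.7 and list mm9 beside mm10. The annotation, strand setting and filters are not given in the sources used here. FPKM divides by transcript length and by library total, so a large change in a few abundant genes shifts every other gene.

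From the FPKM values, log2(FPKM + 0.1) differences were computed within a table for genes of at least 1 FPKM in either library, and differences of at least 2-fold were counted, for the members beside all genes. With 1 library per group there was no test. Members came from a symbol rule and the other gene lists were fixed by hand. Both were chosen with earlier results of these data known. Every member reaching 1 FPKM was named. In each other pathway list the highest and lowest ratio of each comparison within a table and 7 preset genes were named. Depth was estimated from the step between FPKM values of 5723 single-transcript genes. Gene positions, exon overlaps and 50-nt stretches found in other genes came from GENCODE M21 (mm10), and promoter windows from RefSeq (GRCm38.p6). The codons of Gpx5 to Gpx8 were placed by aligning the translated coding sequences to Gpx1. No protein sequence is printed. Alternatives were pseudocounts of 1 and 0.01, no filter and a minimum of 5 FPKM, libraries rescaled to the same sum or centred on the median, members sharing at least 20% of stretches left out, the mean in place of the median, and untreated V6.5 as control. Python 3.11.15 scripts, with matplotlib 3.10.9 for plots, pandas 2.3.3 for tables, numpy 2.4.6 for arithmetic and scipy 1.17.1 for the counting interval, were tested on simulated data.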

Additional observations from a re-analysis of the deposited data

Results flagged for a closer look

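Gstm7, a mu transferase, lay on opposite sides of MEFs in the pluripotent lines. Its log2 ratio was 1.26 in mESCs and -1.62 in iPSCs, both past 2-fold, from 2.11 FPKM in MEFs, 5.21 in mESCs and 0.622 in the iPSC library. The 3 levels correspond to about 71.5, 177 and 18.9 estimated fragments. The difference between the lines was not tested, since each was 1 library and both ratios share the MEF library. With a pseudocount of 1 neither ratio passed 2-fold, and that of iPSCs was -0.94. Counts of fragments this low limit the value.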

How the results depend on the processing

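No paired analysis was possible because each group was 1 library, and no replicate could be left out. With libraries rescaled to the same FPKM sum or centred on the median of all genes, the members at least 2-fold lower in mESCs than in MEFs numbered 8 under each in place of 5, and the members' median log2 ratio was 0.65 and 0.64 in place of 0.88. For iPSCs over MEFs that median was 0.11 and 0.093 in place of 0.41. The mean over members was 0.56 for mESCs and 0.58 for iPSCs. For iPSCs over mESCs it was 0.013, on the other side of 0 from the median of -0.16, and the lower members numbered 2 in place of 4 with a pseudocount of 1. For shGldc over NTC the median of 0.18 was 0.042 with no filter, and it changed sign with the mean (-0.050) and with untreated V6.5 as control (-0.54). The lower members there numbered 1 with a pseudocount of 1, 2 with a minimum of 5 FPKM and 8 with untreated V6.5, in place of 4. The cause of these shifts was not tested. No called gene reversed under the pseudocounts or the rescalings. Of 116 gene ratios, 9 moved with a pseudocount of 1 and 5 with 0.01, and a pseudocount of 1 left 11 calls under 2-fold, among them Gstm3, Gstm5 and Gstt2 in shGldc cells, Gstm7 over MEFs in both lines, and Gpx7 and Mgst1 in iPSCs over mESCs. Ratios of genes listed at 0 (among the members Gpx2 and Gstm3 in MEFs) or under 1 FPKM depend on the pseudocount and the depth. The fragment numbers are estimates from the steps between values and are least sure in the second table, where they could be off by a factor of 2.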
